A study of Mus musculus with 6 samples.

Results

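The DNAJ co-chaperones were examined as a family of 45 protein-coding genes, taken from the 54532 genes of the deposited count table by a gene symbol that starts with Dnaja, Dnajb or Dnajc followed by a number. The class A set held 4 genes, class B 13 and class C 28, and the deposited description named the DnaJ heat shock protein family for all 45. RNA sequencing had been done on L929 cells, a mouse fibroblast line that is widely used to study killing by tumour necrosis factor. The control group was 3 libraries of wild-type L929 cells, and the treated group was 3 libraries of the same line that had spent 12 hours with both TNF-α (10 ng/ml) and actinomycin D (1 µg/ml). The first agent is the cytokine itself and the second is a DNA intercalator that stops RNA synthesis. No group received either agent alone, so each difference belongs to the pair, and all values come from a single cell line. The labels repeat the treatment text on the controls, whose group was read from their titles, and separate cultures are not mentioned, which means that p-values here reflect only the spread among these libraries.

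DNAJ proteins, also called J proteins or HSP40 proteins, carry a J domain that binds an HSP70 chaperone and makes it hydrolyse ATP, which closes the chaperone on a client polypeptide. Class A and class B members resemble bacterial DnaJ in their layout and mostly hand unfolded proteins to HSP70 in the cytosol, whereas class C members share little beyond the J domain and bring HSP70 to particular places, such as the mitochondrial import motor, the lumen of the endoplasmic reticulum, ribosomes, the spliceosome or synaptic and endocytic vesicles. Nucleotide exchange factors then release ADP from HSP70 and let the client go. Some J proteins are known targets of heat shock factor (Dnajb1, Dnaja1) and others of the unfolded protein response (Dnajb9, Dnajb11, Dnajc3, Dnajc10).

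Promoter sequences are shown for 4 members that behaved differently: Dnaja2, which had the largest fall of the family, Dnajb1, the classical heat-inducible HSP40, and the endoplasmic reticulum members Dnajb11, which rose, and Dnajc3, which did not pass the test. Each line gives the 250 bases before the RefSeq start of transcription on GRCm38.p6, 5′ to 3′ on the strand of the gene. Capitals mark matches to a CCAAT box (CCAAT or ATTGG) or to the endoplasmic reticulum stress element, searched as CCAAT, 9 bases of any kind and CCACG, or its reverse complement.
Dnaja2, chr8:85555362-85555611, minus strand: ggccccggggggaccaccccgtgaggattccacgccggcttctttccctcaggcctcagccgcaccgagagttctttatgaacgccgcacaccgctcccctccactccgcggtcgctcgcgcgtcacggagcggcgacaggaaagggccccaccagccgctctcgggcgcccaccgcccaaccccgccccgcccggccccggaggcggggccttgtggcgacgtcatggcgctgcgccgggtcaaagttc
Dnajb1, chr8:83607925-83608174, plus strand: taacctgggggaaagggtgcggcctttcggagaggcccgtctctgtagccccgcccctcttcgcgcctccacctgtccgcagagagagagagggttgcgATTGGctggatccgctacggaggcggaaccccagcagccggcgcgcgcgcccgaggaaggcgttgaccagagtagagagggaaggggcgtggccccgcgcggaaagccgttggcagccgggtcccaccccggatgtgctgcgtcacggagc
Dnajb11, chr16:22857595-22857844, plus strand: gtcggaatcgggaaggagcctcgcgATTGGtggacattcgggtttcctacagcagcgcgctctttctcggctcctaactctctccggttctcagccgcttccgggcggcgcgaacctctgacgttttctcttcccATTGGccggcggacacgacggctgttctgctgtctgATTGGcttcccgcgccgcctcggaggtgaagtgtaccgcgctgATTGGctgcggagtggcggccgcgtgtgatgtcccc
Dnajc3, chr14:118937682-118937931, plus strand: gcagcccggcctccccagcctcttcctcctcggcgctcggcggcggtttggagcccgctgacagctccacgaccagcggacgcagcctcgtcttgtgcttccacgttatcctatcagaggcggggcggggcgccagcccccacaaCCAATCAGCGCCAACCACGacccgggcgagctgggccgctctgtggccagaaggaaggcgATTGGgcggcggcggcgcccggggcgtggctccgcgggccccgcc

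Dnajc3 held the match to the endoplasmic reticulum stress element, at 105 to 87 bases before the start, and no other of the 37 members with a RefSeq promoter held one. The same element was found in 35 of the 27025 genes with a RefSeq promoter, or 0.13%. A gene with several promoter windows was counted once, with a match in any of them. Dnajb11 carried 4 CCAAT boxes and Dnajb1 carried 1. A CCAAT box was about as frequent in the family (14 of 37, 37.8%) as in all genes with a promoter (37.5%). Heat shock elements were searched on both strands as alternating GAA and TTC units with 2 bases of any kind between them. A run of 3 such units was matched in Dnajb6 and in 0.514% of all genes with a promoter. A run of 2 units was matched in 6 members (16.2%) and in 14.5% of all genes with a promoter. The stretch shown for Dnajb1 did not hold it. The CCAAT box is part of the stress element, and the short heat shock element is part of the long one, so those matches overlap. A match is a description of letters in this window, not of binding.

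Library totals ran from 16056207 to 18036322 counts, and within groups log2 CPM (a gene's count scaled to a common library size) correlated across genes at 0.957 to 0.991. Genes with a count numbered 15705 to 18849 in treated libraries and 19219 to 20116 in controls, and treated replicate 1 held the fewest. CPM values here are scaled with TMM factors, which take most genes as equal between libraries, and those factors were 1.34 to 1.53 in controls and 0.640 to 0.797 in treated libraries. With library size alone as the scale, the median log2 change of all tested genes was 1.04 lower, and with ribosomal protein genes held equal it was lower still, by 2.39. Every direction below therefore holds for the TMM scale and does not give an amount per cell. In bulk samples, fewer cells of a type and less RNA per cell cannot be told apart. Of 11 fibroblast markers, 8 had enough counts to test (6 rose and 2 fell), and Lum and Dcn were at 0 in all 6 libraries; the summed level of the list was 5840 to 7580 CPM in controls and 17263 to 20414 CPM in treated libraries. Among 5 leukocyte markers, Ptprc had 1 count in all, and the summed level of 1.74 to 2.05 CPM in controls and 21.9 to 30.7 CPM in treated libraries was nearly all Cd68, a lysosomal membrane gene; the part of such cells in the results was not tested. The 6 epithelial and endothelial markers summed to 0.24 to 0.88 CPM, with Epcam and Kdr at 0.

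On the TMM scale the family went both ways after treatment: all tested class A genes fell, the abundant endoplasmic reticulum member Dnajb11 rose, and the mitochondrial members divided. Of the 45 members, 35 had enough counts to be tested. At an adjusted p of 0.05 in the quasi-likelihood test of edgeR, adjusted by Benjamini-Hochberg over all 13290 genes tested, 9 of the 35 rose (25.7%) and 14 fell (40.0%), where 34.6% of all tested genes rose and 40.2% fell; by library size alone 3 were higher and 24 lower, and with ribosomal protein genes held equal 33 were lower. Of all 13290 tested genes, 2277 were higher and 7924 lower by library size alone, and 10944 were lower with ribosomal protein genes held equal. On the TMM scale 65.7% of the tested members passed in either direction, against 74.8% of all tested genes, so a call by itself was ordinary in these libraries. A change of at least 2-fold was called upward for 5 members and downward for 12, where 27.1% and 33.1% of all genes did the same. The ranges of the groups were apart for 11 members that were higher and 15 that were lower, where 35.9% and 42.0% of all tested genes (77.9% in either direction) had groups that were apart. The median log2 change of the tested members was −0.17, beside −0.18 for all tested genes, while single members ran from −4.03 to 2.52.

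**Figure D1:**
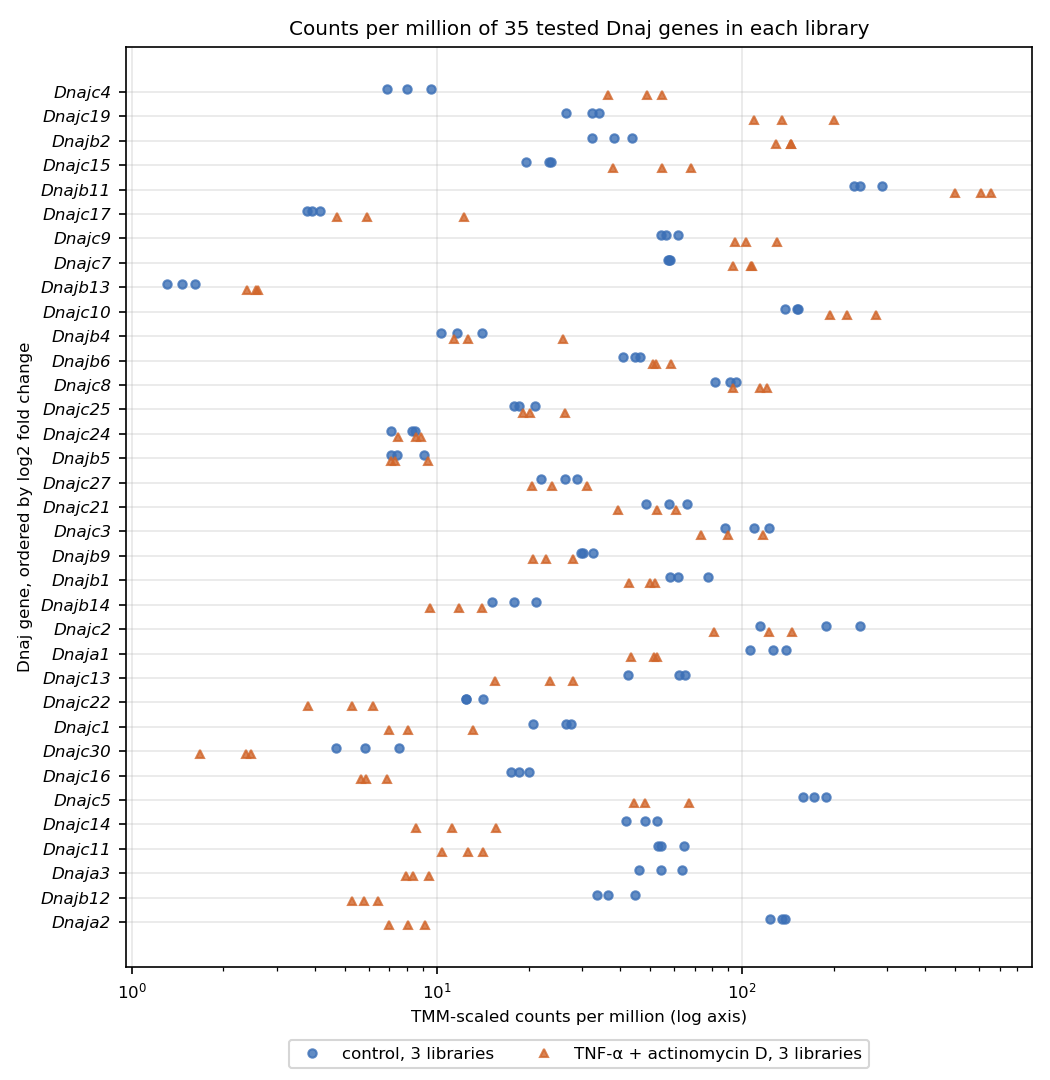
TMM-scaled CPM in each of the 6 libraries (log axis) for the 35 tested Dnaj genes, ordered by their log2 fold change; circles are the 3 control libraries and triangles the 3 treated ones. Dnaja2 at the bottom went from 124 to 138 CPM in controls to 6.97 to 9.17 after treatment, Dnajc4 at the top from 6.86 to 9.55 to 36.5 to 54.8, and the groups of 9 genes overlap.

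All 3 tested class A genes fell, with no overlap between groups, and their calls were kept under each of the 4 other scalings. Of all tested genes, 40.2% fell on the TMM scale and 42.0% were lower with groups apart. Dnaja2, a general cytosolic partner of HSC70 that helps refold denatured proteins, lies on chromosome 8 from 85537633 to 85555344 on GRCm38. It measured 135, 124 and 138 CPM in the controls and 9.17, 6.97 and 8.08 CPM in the treated libraries. Every treated library was thus far under every control, and the log2 change of −4.03 ± 0.18 (SE; edgeR adjusted p = 1.9e-07, n = 3 per group) was a 16.4-fold fall. Dnaja1, its close relative, which is farnesylated and works with HSC70 in folding and in mitochondrial protein import, lies on chromosome 4 from 40722150 to 40737149. Its values were 106, 139 and 127 CPM in controls and 52.9, 43.3 and 51.5 CPM after treatment. The groups were again apart, but the fall of Dnaja1 was smaller, with a log2 change of −1.34 ± 0.16 (edgeR adjusted p = 2.39e-05). Because of that difference the ratio of Dnaja1 to Dnaja2, both per kilobase, turned over from 0.326 ± 0.060 in controls to 2.11 ± 0.11 in treated libraries (SD, n = 3), a ratio that no scaling of the libraries can move; this pair was chosen after its values were seen. Dnaja3, the mitochondrial class A member also called Tid1, which partners mitochondrial HSP70, measured 63.8, 46.0 and 54.3 CPM in controls and 8.38, 9.45 and 7.93 CPM in treated libraries. Its log2 change of −2.67 ± 0.20 (edgeR adjusted p = 9.44e-07) was close to that of Dnajb12 (−2.71). Dnaja4, the remaining class A gene, was too low to test, with 9 counts in all controls and 19 in all treated libraries; 1581 of its exonic bases overlap Wdr61 on the opposite strand.

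The 5 cytosolic and nuclear class B genes did not follow class A, and on the TMM scale 1 rose, 1 fell and 3 did not pass. Over all tested genes 34.6% rose and 40.2% fell. Dnajb2, a J protein with ubiquitin-interacting motifs that sends clients to the proteasome, lies on chromosome 1 from 75236406 to 75245692. It measured 43.7, 32.3 and 38 CPM in controls and 145, 145 and 130 CPM after treatment, so the lowest treated library stood well over the highest control. Its log2 change was 1.88 ± 0.16 (edgeR adjusted p = 2.15e-06), which turned to −0.51 with ribosomal protein genes held equal. Dnajb1, the main heat-inducible HSP40, on chromosome 8 from 83608193 to 83612653, measured 77.7, 58.0 and 61.8 CPM in controls and 42.7, 51.8 and 50.2 CPM after treatment. The groups did not overlap, yet the fall was small, at −0.45 ± 0.17 (edgeR adjusted p = 0.0324). That call was lost without control replicate 1 (log2 change −0.34, adjusted p = 0.106) or control replicate 3 (−0.53, adjusted p = 0.052), and with median-ratio factors (−0.33, adjusted p = 0.0962). Dnajb6, a suppressor of polyglutamine and amyloid aggregation and the member whose promoter matched the long heat shock element, had a log2 change of 0.30 ± 0.15 (edgeR adjusted p = 0.0985), which passed with median-ratio factors (0.42, adjusted p = 0.0344) and was negative by library size alone. Dnajb4, a relative of Dnajb1, had 11.4, 12.7 and 25.8 CPM in the treated libraries against 10.3 to 14.1 in controls, so its highest value rested on treated replicate 3. Dnajb5 was nearly even, at 7.85 ± 1.06 and 7.92 ± 1.2 CPM (SD, n = 3).

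Of the 9 tested J proteins listed here for the endoplasmic reticulum, 2 rose and 4 fell on the TMM scale. The shares over all tested genes were 34.6% and 40.2%. Dnajb11, also called ERdj3, is a soluble lumenal partner of BiP, the HSP70 of this compartment, and lies on chromosome 16 from 22857845 to 22879634. It measured 287, 232 and 244 CPM in controls and 655, 609 and 500 CPM in treated libraries. All treated libraries were above all controls, with a log2 change of 1.21 ± 0.17 (edgeR adjusted p = 6.35e-05). By library size alone Dnajb11 no longer passed (0.16, adjusted p = 0.158), and its sign turned with ribosomal protein genes held equal (−1.20). Within the family, where library scaling has no part, Dnajb11 took 12.5% ± 1.54 of the counts of all 45 members in controls and 26.5% ± 2.99 after treatment (SD, n = 3). Dnajc10, or ERdj5, a disulfide reductase that helps clear misfolded proteins, lies on chromosome 2 from 80315466 to 80354043. It measured 139, 151 and 153 CPM in controls and 195, 221 and 276 CPM after treatment. Those values gave a log2 change of 0.64 ± 0.16 (edgeR adjusted p = 0.00396), which was −0.38 by library size alone.

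The other stress-regulated members of this compartment did not pass the test on the TMM scale. Dnajb9, or ERdj4, which restrains the stress sensor IRE1, lies on chromosome 12 from 44205559 to 44210326 and measured 30.2, 32.5 and 29.7 CPM in controls against 20.7, 22.8 and 28.1 CPM in treated libraries. All 3 treated values were lower, but the log2 change of −0.37 ± 0.18 did not pass (edgeR adjusted p = 0.0851); it passed without treated replicate 3 (−0.55, adjusted p = 0.0127). Dnajc3, or p58IPK, an inhibitor of the kinase PERK and the member with the stress element, lies on chromosome 14 from 118937976 to 118981697 and measured 88.0, 123 and 110 CPM in controls and 73.6, 90.2 and 118 CPM after treatment. The groups overlapped, with a log2 change of −0.19 ± 0.20 (edgeR adjusted p = 0.406). By library size alone both were called lower (Dnajb9 −1.40, Dnajc3 −1.21). Of the 4 members known as targets of the unfolded protein response, Dnajb11 and Dnajc10 rose on the TMM scale and Dnajb9 and Dnajc3 did not pass.

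Among the remaining members listed here for the endoplasmic reticulum, 4 fell and 1 did not pass, where 40.2% of all tested genes fell. Dnajb12, a transmembrane J protein that works with cytosolic HSC70 in degrading membrane proteins, lies on chromosome 10 from 59879556 to 59899302. It measured 44.6, 36.5 and 33.4 CPM in controls and 6.44, 5.30 and 5.79 CPM in treated libraries, and no treated library came near a control. The log2 change was −2.71 ± 0.21 (edgeR adjusted p = 1.09e-06). Dnajb14, its closest relative, changed far less, at −0.62 ± 0.23 (edgeR adjusted p = 0.0286), and that call was lost without control replicate 2 (−0.52, adjusted p = 0.11), control replicate 3 (−0.66, adjusted p = 0.0686), treated replicate 2 (−0.70, adjusted p = 0.0674) or treated replicate 3 (−0.53, adjusted p = 0.0673). The per-kilobase ratio of Dnajb12 to Dnajb14, a pair chosen after its values were seen, went from 10.2 ± 3.11 in controls to 2.36 ± 0.42 in treated libraries (SD, n = 3). Dnajc1, a BiP partner that also touches ribosomes, fell by 1.41 and Dnajc16, a membrane member of this compartment, fell by 1.61 on the log2 scale, both without overlap. Dnajc25 had 19.1 ± 1.61 CPM in controls and 22.0 ± 3.87 CPM after treatment, with overlapping groups. Dnajc18 was at 0 in all 6 libraries.

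All 6 tested mitochondrial members passed the test, and they divided evenly into 3 higher and 3 lower on the TMM scale. Of all tested genes 74.8% passed, with 34.6% higher and 40.2% lower, so calls in both directions were ordinary. The rises were the inner-membrane or import-motor members Dnajc19 and Dnajc15 and the small gene Dnajc4. Dnajc4, on chromosome 19 from 6987911 to 6992503, measured 9.55, 6.86 and 7.97 CPM in controls and 54.8, 48.8 and 36.5 CPM in treated libraries. That was the largest rise of the family, a log2 change of 2.52 ± 0.22 (edgeR adjusted p = 2.34e-06), which stayed positive but did not pass (0.10, adjusted p = 0.635) on the scale that holds ribosomal protein genes equal. Dnajc19, which stimulates the HSP70 of the import motor, lies on chromosome 3 from 34056020 to 34081321 and measured 34.1, 26.6 and 32.3 CPM in controls and 201, 135 and 110 CPM after treatment. Treated replicate 1 was the highest, and the log2 change was 2.26 ± 0.23 (edgeR adjusted p = 6.64e-06), or −0.18 with ribosomal protein genes held equal. A processed pseudogene, Dnajc19-ps, held 198 counts in all controls and 391 in all treated libraries. How reads were shared between the copies is not stated, so the Dnajc19 values are uncertain to that extent. Dnajc15, a relative of Dnajc19 at the same motor that is also called methylation-controlled J protein, measured 23.3, 19.6 and 23.7 CPM in controls and 68.2, 54.7 and 37.9 CPM after treatment. Its log2 change was 1.27 ± 0.22 (edgeR adjusted p = 0.000326), lost by library size alone (0.20, adjusted p = 0.335) and −1.18 with ribosomal protein genes held equal.

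The mitochondrial members that fell were Dnaja3, described with class A, Dnajc11 and Dnajc30. Dnajc11, an outer-membrane protein tied to the contact-site complex that shapes cristae, lies on chromosome 4 from 151933691 to 151982137. It measured 64.8, 53.1 and 54.2 CPM in controls and 14.2, 12.6 and 10.4 CPM in treated libraries, and the groups were apart, with a log2 change of −2.21 ± 0.19 (edgeR adjusted p = 2.12e-06). Dnajc30, an intronless gene whose product associates with the respiratory chain, was at 6.02 ± 1.42 CPM in controls and 2.17 ± 0.43 CPM after treatment (SD, n = 3; log2 change −1.47). Dnajc28, the seventh member of the list, was too low to test, with 16 counts in all controls and 3 in all treated libraries.

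Among the 5 nuclear, ribosomal and RNA-linked class C members, 2 rose on the TMM scale and 3 did not pass. Of all tested genes 34.6% rose. Dnajc9, a histone chaperone that recruits HSP70 to H3 and H4, went from 57.5 ± 4.02 CPM in controls to 109 ± 18.8 CPM (SD, n = 3). Its log2 change of 0.93 was −0.13 by library size alone. Dnajc17, a splicing-linked gene on chromosome 2 from 119172500 to 119208795, measured 4.13, 3.76 and 3.91 CPM in controls and 12.3, 5.92 and 4.73 CPM in treated libraries. The high value was treated replicate 1, and without that library the log2 change of 0.95 ± 0.35 (edgeR adjusted p = 0.0288) became 0.35 (adjusted p = 0.201). The Dnajc17 call was also lost without control replicate 1, 2 or 3 (adjusted p = 0.0723, 0.0886 and 0.0815) or treated replicate 2 (adjusted p = 0.0587), and the sign turned by library size alone. Dnajc2, a ribosome-associated J protein also called ZRF1 or MPP11, varied widely, with 114, 244 and 189 CPM in controls and 80.9, 122 and 147 CPM after treatment; its log2 change of −0.65 did not pass (edgeR adjusted p = 0.0601) and passed without control replicate 1 (−0.92, adjusted p = 0.00833) and with DESeq2 (−0.65, adjusted p = 0.0396). Dnajc8, a spliceosome-associated member, was at 89.4 ± 7.29 and 110 ± 14.4 CPM, and its log2 change of 0.30 (edgeR adjusted p = 0.104) passed without treated replicate 3 (0.36, adjusted p = 0.0102) and with median-ratio factors (0.42, adjusted p = 0.0459). Dnajc21, needed for the recycling of ribosome assembly factors, was at 57.4 ± 8.78 and 51.1 ± 10.9 CPM, with overlapping groups.

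Of the class C members listed here as vesicle and endocytic, 3 of the 4 tested fell. On the TMM scale 40.2% of all tested genes fell. Dnajc14 was counted in this list, although its product lies in the membrane of the endoplasmic reticulum. Dnajc5, which encodes the cysteine string protein of secretory vesicles, lies on chromosome 2 from 181520485 to 181555133. It measured 189, 158 and 172 CPM in controls and 44.2, 48.1 and 67.1 CPM in treated libraries, with every treated library lower. Its log2 change was −1.70 ± 0.18 (edgeR adjusted p = 9.46e-06). Dnajc14, a membrane J protein studied in receptor export and virus replication, lies on chromosome 10 from 128804062 to 128819446 and measured 52.8, 41.9 and 48.2 CPM in controls and 8.55, 11.2 and 15.7 CPM after treatment. The log2 change of −2.01 ± 0.23 (edgeR adjusted p = 1.67e-05) carries the limit that 1114 exonic bases overlap Ormdl2 on the opposite strand, and no source here says whether counting used strand. Dnajc13, an endosomal protein also called RME-8, fell from 56.6 ± 12.3 to 22.4 ± 6.35 CPM (SD, n = 3). Dnajc27, a small GTPase with a J domain, was at 25.7 ± 3.48 and 25.2 ± 5.46 CPM, and Dnajc6, the neuronal auxilin gene, was at 0 in all 6 libraries.

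Dnajc7, Dnajc22 and Dnajc24 were the tested class C members that belonged to none of those groups. Dnajc7, or TPR2, whose tetratricopeptide repeats link HSP70 with HSP90, measured 58.0, 57.2 and 57.5 CPM in controls and 107, 108 and 93.9 CPM in treated libraries. It rose by 0.84 ± 0.14 on the log2 scale (edgeR adjusted p = 0.000255), and was at −0.21 by library size alone. Dnajc22, a membrane J protein gene, fell by 1.36 on the log2 scale, from 13 ± 0.98 to 5.08 ± 1.21 CPM. Dnajc24, which acts in the synthesis of diphthamide on elongation factor 2, was at 7.98 ± 0.77 and 8.31 ± 0.75 CPM, with overlapping groups.

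**Figure D2:**
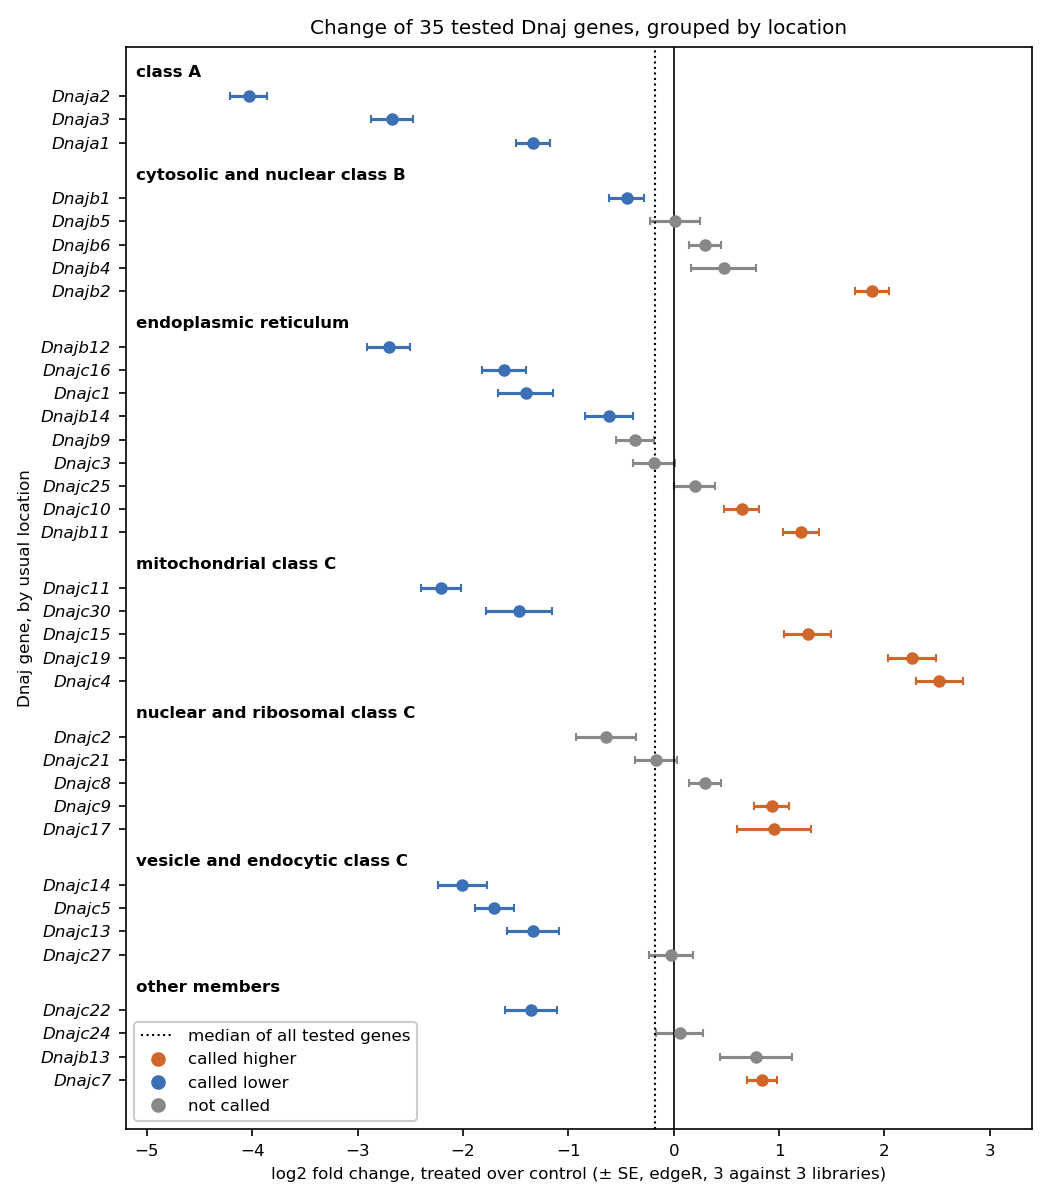
Log2 fold change of each tested Dnaj gene, treated over control, on the TMM scale, grouped by the lists used in the text. Dnajc14 is drawn with the vesicle and endocytic members. Bars are ± 1 SE from the edgeR fit and colours give the call at an adjusted p of 0.05. Class A lies wholly to the left, from −4.03 to −1.34, whereas the mitochondrial row runs from −2.21 to 2.52. Dnaja3 is mitochondrial but is drawn with class A. By library size alone the called genes Dnajc10, Dnajc17, Dnajc7 and Dnajc9 turn negative, and so do several genes that were not called.

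The testis-enriched members were near or at 0. Dnajb13, a sperm flagellum gene, was the 1 of 6 that could be tested, at 1.46 ± 0.15 CPM in controls and 2.51 ± 0.11 CPM after treatment (log2 change 0.78 ± 0.34, edgeR adjusted p = 0.0567), and the call was made with median-ratio factors (0.90, adjusted p = 0.031). Its exons share 305 bases with Ucp2 on the opposite strand, a gene with 4914 counts in all controls and 5773 in all treated libraries. By the same sums Dnajb3 had 3 counts and 0, Dnajb7 had 3 and 4, and Dnajb8 had 2 and 0, so nothing can be read from them at this depth. Dnajc5b and Dnajc5g were at 0 in all 6 libraries, and so was Dnajc12, a gene outside this list whose product is linked to aromatic amino acid hydroxylases.

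Between genes, levels were compared as CPM per kilobase of deposited gene length, a length that joins all annotated exons of a gene. Dnajb11 was the highest member in both groups, at 78.7 CPM per kilobase in controls and 182 after treatment. Dnaja2 went from second place (44.5 CPM per kilobase) to position 23 (2.71). Dnajc2, Dnajc8 and Dnajc10 held places 3, 4 and 5 in controls, at 36.3, 35 and 29.5 CPM per kilobase, and Dnajc10, Dnajc9 and Dnajc4 stood close together in treated libraries at 46.1, 46.0 and 43.5. Dnaja1 went from place 10 to position 19. These places depend on the length used. By the length of the principal coding transcript Dnajb11 was again first in both groups, Dnaja2 was at 5 and 28, Dnaja1 at 6 and 14, and Dnajc19, at 17 and 6 by deposited length, was at 4 and 2. Summed over the family, the level was 480.6 ± 8.32 CPM per kilobase in controls and 602.5 ± 36.8 in treated libraries (SD, n = 3). That was a ratio of 1.25 on the TMM scale. The exact two-sided permutation test gave p = 0.1, the smallest value that 3 against 3 allows. The sum gained 121.9, and Dnajb11 alone went from 78.7 to 182, so most of that gain was in Dnajb11. Summed CPM without length had a ratio of 1.09. As a share of all counts the family went the other way, from 0.293% ± 0.022 to 0.155% ± 0.015, with the same p = 0.1 in the exact permutation test. Dnaja2 took 6.5% ± 0.41 of the family's counts in controls and 0.365% ± 0.046 after treatment, and Dnajc5 took 8.50% ± 0.83 and 2.41% ± 0.62.

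**Figure D3:**
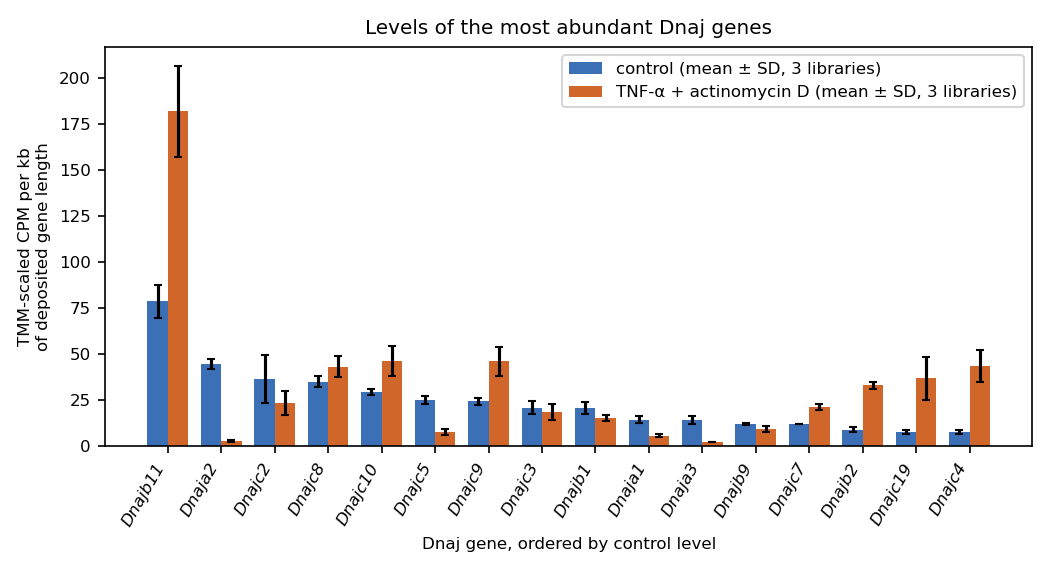
Bars give the mean TMM-scaled CPM per kilobase of deposited gene length, in control and treated libraries, for the 12 most abundant Dnaj genes in controls and the 10 most abundant after treatment, ordered by control level; error bars are ± 1 SD over 3 libraries. Dnajb11 is the tallest in both groups, at 78.7 and 182, and Dnaja2, second among controls at 44.5, is at 2.71 after treatment.

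Across the whole table, longer genes fell more than shorter ones, and the members were read against that trend. Spearman's rho between the log2 change and the deposited gene length was −0.29 over the 35 members and −0.42 over 13290 genes. By principal transcript length it was −0.47 over the members and −0.46 over the 11444 tested genes with a gene model. By coding length it was −0.46 and −0.40. These are descriptions across genes, which are not independent replicates. The members that rose had a median deposited length of 4027 bases and those that fell 6534 bases. Over all tested genes the medians were 2648.5 bases for rises and 5360 for falls. Several falls were much larger than the trend at their own length: relative to it, Dnaja2 (2975 bases) lay at −4.24 on the log2 scale, Dnajb12 at −2.73, Dnaja3 at −2.51, and the short genes Dnajc30 and Dnajc22 at −2.34 and −2.12. Dnajc19, Dnajb2 and Dnajc15 lay 2.46, 2.14 and 1.98 above it. These distances hold for the deposited length alone. The principal transcripts of Dnajc19 and Dnajb2 have 659 and 1253 bases, against deposited lengths of 4027 and 4249. Distances from a trend on principal transcript length were not computed. Once the trend was removed from the fit, the calls of Dnajc1 (−0.47, adjusted p = 0.127), Dnajc13 (−0.38, adjusted p = 0.182) and Dnajc9 (0.24, adjusted p = 0.206) were lost and Dnajb14 (0.49, adjusted p = 0.0732) and Dnajc17 (−0.33, adjusted p = 0.42) changed sign. In that fit Dnajb9 (−0.97, adjusted p = 0.000676) and Dnajc24 (−1.18, adjusted p = 0.000761) were called lower, and Dnajb4 (1.22, adjusted p = 0.00516) and Dnajb6 (0.76, adjusted p = 0.00108) were called higher. Dnajc4, at 1074 bases the shortest tested member, was at 1.06 there (adjusted p = 0.00103) in place of 2.52.

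**Figure D4:**
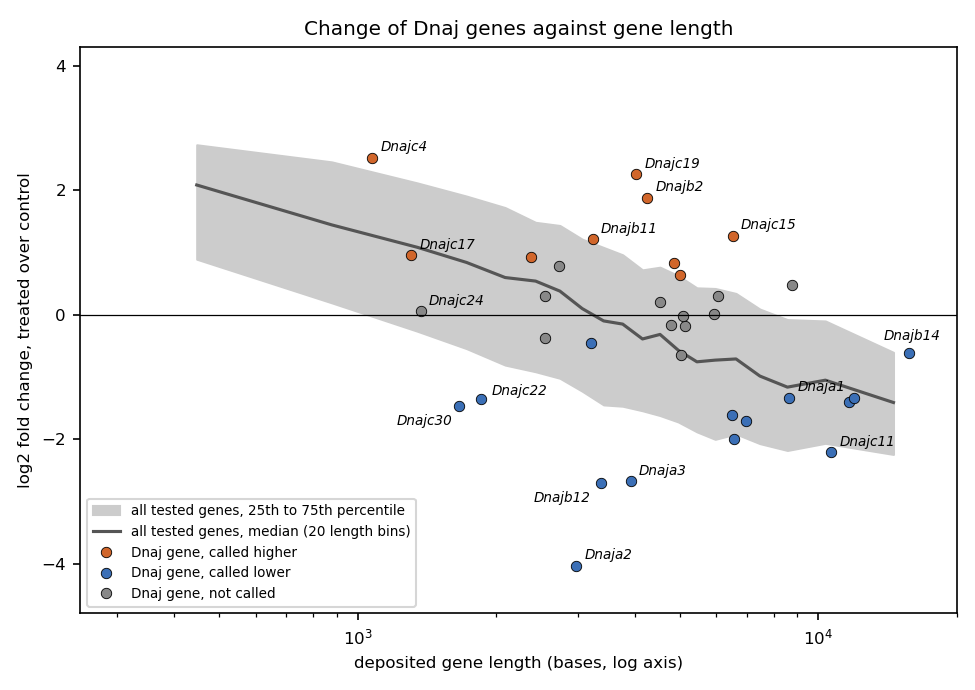
Log2 fold change on the TMM scale against deposited gene length (log axis) for the 35 tested Dnaj genes, coloured by call, over the median (line) and the 25th to 75th percentile (band) of all 13290 tested genes in 20 length bins. Dnaja2, Dnajb12 and Dnaja3 lie far under the band, and Dnajc19, Dnajb2 and Dnajc15 lie above it.

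Among the HSP70 chaperones that these J proteins serve, Hspa8 and Hspa5 fell and Hspa9 rose on the TMM scale, and a difference between compartments was not tested. Hspa8, the constitutive cytosolic HSC70 that works with Dnaja1 and Dnaja2, had 1556, 1268 and 1400 CPM in controls and 73.2, 80.8 and 52.9 CPM after treatment, giving a log2 change of −4.35 ± 0.22 (edgeR adjusted p = 2.74e-07). Hspa5, the BiP gene of the endoplasmic reticulum, fell from 3662 ± 72 CPM in controls to 2289 ± 201 CPM, with a log2 change of −0.68 ± 0.17 (edgeR adjusted p = 0.0041). Hspa9, the mitochondrial HSP70 gene, rose from 790 ± 12 CPM in controls to 1357 ± 47 CPM on the TMM scale, with a log2 change of 0.78 ± 0.15 (edgeR adjusted p = 0.000798) that was −0.26 by library size alone. Set beside their partners, per kilobase and free of library scaling, Dnaja2 over Hspa8 was 0.136 ± 0.009 in controls and 0.176 ± 0.048 in treated libraries, with overlap between the groups. Dnajb11 over Hspa5 went from 0.0907 ± 0.0088 to 0.339 ± 0.070, and Dnaja3 over Hspa9 from 0.0695 ± 0.0107 to 0.00638 ± 0.00079, neither with overlap (SD, n = 3 each). These 3 pairs were chosen after their values were seen. The inducible Hspa1a had 5 counts in all controls and 2 in all treated libraries and was not tested. Its near-identical copy Hspa1b had 3.47, 3.02 and 3.00 CPM in controls and 2.73, 8.03 and 10.7 CPM after treatment, and its call (log2 change 1.18 ± 0.42, edgeR adjusted p = 0.0246) was lost on leaving out any library other than treated replicate 1, with adjusted p of 0.058, 0.0715 and 0.0721 without control replicates 1, 2 and 3 and 0.121 and 0.155 without treated replicates 2 and 3. The Hspa1b call was also lost by library size alone (0.19, adjusted p = 0.741) and with the gene length offset (0.71, adjusted p = 0.152). Reads shared by Hspa1a and Hspa1b make both uncertain. In all, 2 of 10 tested HSP70 genes rose and 5 fell on the TMM scale, where 34.6% and 40.2% of all tested genes did. By library size alone edgeR called 7 lower, with ribosomal protein genes held equal 9, and on both scales 0 higher (0 also at an unadjusted p under 0.05). Of all 13290 tested genes, 7924 and 10944 were lower on those scales, and only 2277 and 251 were higher. With the gene length offset 1 HSP70 gene was higher and 3 lower, beside 3842 and 5246 of all tested genes.

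The other genes of the cycle were spread in both directions on the TMM scale. With ribosomal protein genes held equal, edgeR called 0 genes higher in any of the lists that follow, heat shock factor and unfolded protein response targets included (0 also at an unadjusted p under 0.05). Over all 13290 tested genes, 10944 were lower and 251 higher on that scale, and 7924 were lower and 2277 higher by library size alone. Most genes were thus lower on both. The gene length offset gave 3842 higher and 5246 lower, and on the TMM scale 34.6% rose and 40.2% fell. Of 14 nucleotide exchange factors, 4 rose and 7 fell on the TMM scale, 3 and 10 by library size alone, and 13 were lower with ribosomal protein genes held equal. Bag1 rose from 141 ± 18.4 to 792 ± 124 CPM and Sil1, the exchange factor of BiP, rose by 1.75, whereas Bag4 fell by 2.66 and Grpel2, a mitochondrial exchange factor, fell by 2.49 on the log2 scale. With ribosomal protein genes held equal Sil1 was at −0.69 and Bag1 no longer passed (0.08, adjusted p = 0.581). Of 7 adaptors with tetratricopeptide repeats or like roles, 4 rose and 1 fell on the TMM scale. Scaled by library size alone, edgeR called 0 of them higher (0 also at an unadjusted p under 0.05) and 4 lower, with ribosomal protein genes held equal 7 lower, and with the gene length offset 1 higher and 1 lower. Stub1, the ubiquitin ligase CHIP, rose by 1.28 and Stip1, the HSP70 and HSP90 organising protein HOP, by 1.08, both below 0 on the scale that holds ribosomal protein genes equal, and Tomm70a, an import receptor of the outer mitochondrial membrane, fell by 3.09. The calls of Stub1 and Stip1 were lost by library size alone (0.23, adjusted p = 0.118, and 0.04, adjusted p = 0.723) and with the gene length offset (0.24, adjusted p = 0.234, and 0.30, adjusted p = 0.0986). Of 5 J-domain genes that carry other names, 2 rose and 2 fell on the TMM scale: Hscb, an iron-sulfur cluster co-chaperone, at 1.72 and Pam16, a J-like regulator of the import motor, at 1.42, against Gak, the general auxilin, at −1.36. Hscb and Pam16 were below 0 on the scale that holds ribosomal protein genes equal, where all 5 were called lower; by library size alone 1 was higher and 3 lower, and Pam16 did not pass (0.36, adjusted p = 0.114). With the gene length offset 2 were higher and 1 lower, and the Hscb call was lost (0.10, adjusted p = 0.776).

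Known heat shock factor targets and unfolded protein response targets were each mixed on the TMM scale. The 10 tested heat shock factor targets, with Dnaja1 and Dnajb1 among them, held 5 rises and 5 falls on the TMM scale. Scaled by library size alone, 1 was higher and 5 lower, with ribosomal protein genes held equal 8 were lower, and with the gene length offset 2 were higher and 5 lower. Hspe1, the mitochondrial HSP10 gene, rose by 1.42 and Hsp90aa1 by 1.22, whereas Hspa8 fell by 4.35 and Bag3 by 1.90; Hspe1 and Hsp90aa1 turned negative with ribosomal protein genes held equal. The Hspe1 call was lost with the gene length offset (0.25, adjusted p = 0.239). The Hsp90aa1 call was lost by library size alone (0.19, adjusted p = 0.728) and without control replicate 3 (adjusted p = 0.0618), treated replicate 2 (adjusted p = 0.0855) or treated replicate 3 (0.79, adjusted p = 0.139). Of 16 unfolded protein response targets, which include Dnajb9, Dnajb11, Dnajc3 and Dnajc10, 6 rose and 4 fell on the TMM scale. With library size alone as the scale, 1 was higher and 11 lower, with ribosomal protein genes held equal all 16 were lower, and with the gene length offset 4 were higher and 8 lower. Pdia6, a disulfide isomerase gene, rose by 1.64 and Manf by 0.93, while the transcription factor gene Xbp1 fell by 3.16 and Herpud1, a component of degradation from the endoplasmic reticulum, fell by 1.70; Manf turned negative by library size alone and Pdia6 with ribosomal protein genes held equal.

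Exons shared with a neighbour set a limit for some members, since the use of strand in counting is not given. Dnajc1 shares 749 exonic bases with Mllt10, Dnaja1 608 with Smu1, Dnajc7 287 with Nkiras2, Dnajc19 178 with Fxr1 and Dnajc17 108 with Zfyve19, all on the opposite strand, and Dnaja3 shares 160 with Vasn on the same strand. The overlap of Dnajc30 with Bud23 covers 436 of its 1661 bases. By raw counts, summed over controls and over treated libraries, Mllt10 had 1954 and 157 and Smu1 had 5613 and 642, lower after treatment like Dnajc1 and Dnaja1. Others went against their member by raw counts: Fxr1 had 4217 and 882 while Dnajc19 had 2295 and 5248. Bud23 had 4347 and 5258 while Dnajc30 had 445 and 78. Zfyve19 had 1049 and 361 and Dnajc17 had 291 and 268, so both were lower by raw counts, though Dnajc17 rose on the TMM scale. The part of these neighbours in the member values was not tested.

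**Figure D5:**
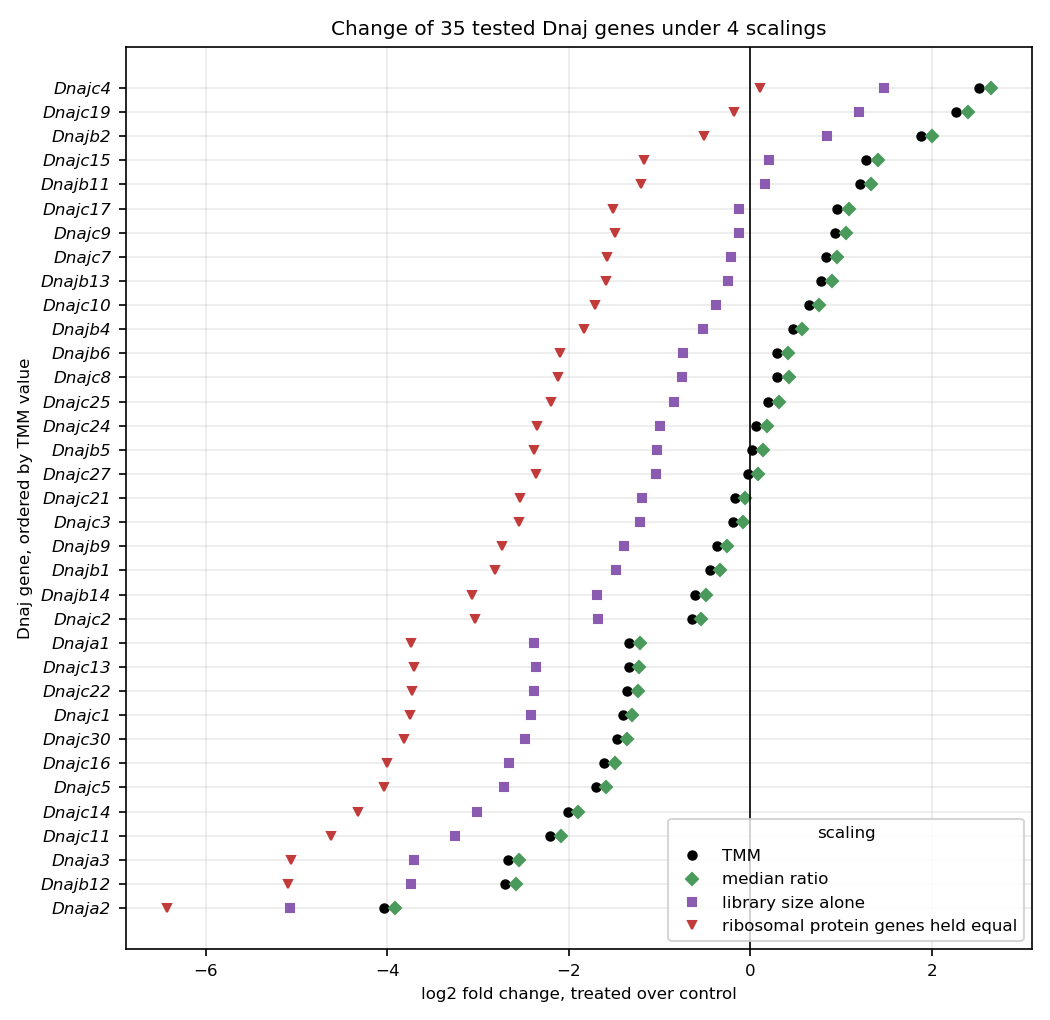
Log2 fold change of the 35 tested Dnaj genes under 4 scalings of the libraries: TMM, median-ratio factors, library size alone and ribosomal protein genes held equal. The points move together along the axis from scaling to scaling; Dnaja2 runs from −3.92 with median-ratio factors to −6.43 with ribosomal protein genes held equal, and Dnajb11 from 1.21 with TMM to −1.20.

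A change of library scaling shifts nearly all genes alike, so the distance of a member from the median of all tested genes is fixed by construction and is given only as a description. Dnajb11 lay 1.38 above it with TMM, 1.37 above by library size alone and 1.36 above with ribosomal protein genes held equal, and Dnaja2 lay at −3.86, −3.86 and −3.87. Of the 14 members that fell, 12 were called lower with TMM and under each of the 4 other scalings; the other pair was Dnajb1 and Dnajb14.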

How the data were processed

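Gene counts and FPKM values of 6 libraries were used, with groups read from the sample titles. The deposited whole-number counts cover 54532 Ensembl genes; the submitters' processing notes name GRCm38 or mm10 as build and HISAT2 2.1.0, RSEM 1.3.1 and DESeq2 1.24.0 as tools, with no role. The authors' FPKM values equal the count over the gene length times 1 constant per library. That constant relative to the library total lay between 0.635 and 0.719 for controls and between 1.22 and 1.64 for treated libraries. Per the file headers, gene length is given in bases, which is the other deposited value. Genes passing edgeR's filterByExpr (13290 of 24708 with a count) were scaled by TMM and tested with edgeR 4.0.16 (robust glmQLFit, glmQLFTest) in R 4.3.3, with Benjamini-Hochberg adjustment over all of them and a threshold of 0.05. A standard error is the log2 change over the root of F. A tested gene passed the filter on counts in any group, and library totals limit the precision of low members.

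Replicates were compared before averaging: chi-square per gene within groups was 9.84 to 63.4, so none was a copy. In 10 simulations over 12984 to 13013 genes, treated against control, edgeR recovered 44.1% of genes with a true log2 change of 1 and 90.1% with one of 2, and 8.0% of its calls were false. Over all simulations only 980 and 984 genes were changed by those amounts, up and down alike. In the real libraries 74.8% of tested genes were called, so these rates do not carry over to them. Named members were the 6 largest rises and 6 largest falls among called members averaging 1 CPM or more, and Dnaja1, Dnajb1, Dnajb9, Dnajb11, Dnajc3 and Dnajc10 in every case; for each other list, up to 2 rises and 2 falls by the same rule. The members and lists were chosen with earlier results of these data known. For the other lists, 1 gene is not reported here. Gene models came from GENCODE M21 and promoters from RefSeq (GRCm38.p6; 37 of 45 members matched). Alternatives were other scalings, filters, DESeq2 1.42.0, limma-voom, limma 3.58.1 on log2(FPKM + 1) and log2(FPKM + 0.1), a replicate block, a gene length offset, a table of protein-coding genes, and fits that left out each library in turn; the length of the principal transcript was added after seeing the data. Figures were drawn with matplotlib 3.10.9.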

Additional observations from a re-analysis of the deposited data

How the results depend on the processing

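The scale of the libraries set the direction of many members. By library size alone 3 members were called higher and 24 lower. With ribosomal protein genes held equal 0 were called higher by edgeR (0 also at an unadjusted p under 0.05; no other tool was run at that scale) and 33 lower. Over all 13290 tested genes, 2277 were higher and 7924 lower by library size alone. With ribosomal protein genes held equal those numbers were 251 and 10944. The summed family ratio of 1.25 became 0.527 as a share of all counts, 1.09 as CPM without length and 1.47 per kilobase of the principal transcript. Leaving out 1 library gave 8 to 10 members higher, 12 to 14 lower and a family ratio of 1.219 to 1.295. The other settings gave 9 to 12 higher and 12 to 16 lower.

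By library size alone the log2 changes that turned, among genes called on either scale, were Dnajb5 −1.03, Dnajb6 −0.75, Dnajc10 −0.38, Dnajc17 −0.13, Dnajc24 −0.99, Dnajc25 −0.84, Dnajc7 −0.21, Dnajc8 −0.76, Dnajc9 −0.13, Hspa9 −0.26 and Manf −0.13; Dnajb13 (−0.25) and Dnajb4 (−0.53) also turned, with no call on either scale. With ribosomal protein genes held equal they were Dnajb11 −1.20, Dnajb13 −1.59, Dnajb2 −0.51, Dnajb4 −1.84, Dnajb5 −2.39, Dnajb6 −2.10, Dnajc10 −1.72, Dnajc15 −1.18, Dnajc17 −1.52, Dnajc19 −0.18, Dnajc24 −2.36, Dnajc25 −2.20, Dnajc7 −1.58, Dnajc8 −2.12, Dnajc9 −1.49, Hscb −0.69, Hsp90aa1 −1.15, Hspa1b −1.11, Hspa9 −1.61, Hspe1 −1.01, Manf −1.50, Pam16 −1.01, Pdia6 −0.77, Sil1 −0.69, Stip1 −1.32 and Stub1 −1.13. Both follow from the shift of the scale itself. With the gene length offset Dnajb14 was at 0.49, Dnajc17 at −0.33 and Dnajc24 at −1.18, and the cause was not tested.

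Replicate numbers are not stated to pair the libraries. Deviations of same-numbered libraries correlated at 0.22, −0.137 and 0.029, and those of differently numbered libraries at −0.377 to 0.383. With 3 libraries per group these values cannot show whether the libraries were paired. With a replicate block 9 members were higher and 15 lower; Dnajc2 was called (−0.62, adjusted p = 0.00138) and the other 34 kept their side of the threshold. The block with the length offset gave 9 higher and 13 lower, with Dnajb14 at 0.49, Dnajc17 at −0.44 and Dnajc24 at −1.18. Over all 13290 tested genes the block gave 4450 higher and 5411 lower, and with the length offset 3784 and 5367. The 10 untested members had at most 19 counts over a group, so changes in them were not detectable at this depth.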
